A study of Mus musculus with 31 samples.

Results

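The data are the whole-brain RNA of 6 mice killed 1.5 h after an injection, 3 given oleic acid and 3 given physiological serum, out of 31 mice in the series. They were chosen by the treatment and the time in their labels, and no measured value entered the choice. All were female C57BL/6 mice aged 6 weeks, anaesthetised with xylazine and ketamine, and all received 200 µl through a tail vein. The dose of oleic acid was 1.2 µl for each g the mouse weighed, and the controls received serum in its place. The brain itself was not injected, and the anaesthetic and the injection were shared by both groups. Each brain was measured on 1 Agilent single-colour array from 200 ng of RNA, and no pooling is stated in the labels.

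Oleic acid in a tail vein first meets the capillaries of the lung, and it is used in animals to produce acute lung injury with oedema and low blood oxygen. The series asks what such an injury does to the brain. Immediate early genes are switched on within minutes of a stimulus without new protein synthesis, and in the brain they follow neuronal activity, anaesthesia and stress. Glucocorticoid target genes follow the stress hormone corticosterone, and chemokines such as Ccl2 draw leukocytes to inflamed vessels.

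Levels are given as the log2 of the processed intensity minus the log2 of the 75th percentile of that array, so that 0 is the 75th percentile and a difference of 1 is 2-fold. Differences are oleic acid minus serum. The 6 arrays lay on 3 slides. Slide 1 held serum replicates 1 and 2, slide 2 held serum replicate 3 and oleic acid replicate 1, and slide 3 held oleic acid replicates 2 and 3. Only slide 2 therefore held both treatments, and its 2 arrays were scanned apart from the other 4. Their 75th percentiles were 462 and 334, against 596 to 686 on the other arrays, and their levels correlated at 0.991 across genes with each other but at 0.974 to 0.985 with the other 4 arrays. The share of spots well above background ran from 61.7% to 63.9%. Beside most results the difference between the 2 mice of slide 2 is also given. Where all mice of 1 treatment lie above all of the other, this difference must have the same sign. For such genes it shows the size within slide 2 and is no check of the direction. The labels do not say whether mice of a group were injected or dissected together.

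The labelled tissue was checked against marker genes. All 5 neuronal, 5 astrocyte, 4 oligodendrocyte, 5 microglial, 4 endothelial and 4 choroid plexus markers were well above background on all 6 arrays. None passed the test between treatments, but no gene did, so this does not show that the cell composition was equal. The 4 cerebellar markers varied from brain to brain. Gabra6, which cerebellar granule cells use to respond to GABA, was at 1.78, 0.63 and -3.94 in the serum mice and at -1.44, -7.59 and 1.06 in the oleic acid mice. The cerebellar signal was thus low in serum replicate 3 and lowest in oleic acid replicate 2, and its part in the results was not tested.

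No gene passed the test between oleic acid and serum at 1.5 h. Of 25171 genes and unnamed transcripts, 0 had a Benjamini-Hochberg adjusted p under 0.05 in limma (0% of those tested), and the smallest adjusted p was 0.251. An unadjusted p under 0.05 was reached by 1332 of them (5.29%), 773 higher (3.07%) and 559 lower (2.22%) in the oleic acid mice. The 3 arrays of each treatment did not overlap for 1081 genes that were higher (4.29%) and 1589 that were lower (6.31%). The median difference over all genes was -0.01. What follows are values of single genes and of gene lists, none of which is a call. Without serum replicate 3, 159 genes passed (0.632%), 155 of them higher (0.616%) and 4 lower (0.0159%) in the oleic acid mice. In 155 of the 159, serum replicate 3 lay above both other serum mice, and 127 of the 159 are known only by a transcript or clone identifier. They were dim, with a median level of -3.25 against -0.63 over all genes.

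The sequences that matter for reading these data come first. Several probes lie on Malat1, a nuclear long noncoding RNA that is among the most abundant transcripts of neurons and takes part in the organisation of splicing factors. The values of 10 probes on its strand within chr19:5795689-5802671 (mm9, minus strand) are given. The probes at the 3′ end are shown because their values differed from those of the probes further upstream. Bases in capitals are those that a probe shares with the first probe of the 3′ end.
Malat1 3′ end, chr19:5795713-5795772: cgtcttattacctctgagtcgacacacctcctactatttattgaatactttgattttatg
Malat1 3′ end, chr19:5795752-5795811: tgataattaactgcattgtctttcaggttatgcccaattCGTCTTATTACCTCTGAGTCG
Malat1 body, chr19:5798473-5798532: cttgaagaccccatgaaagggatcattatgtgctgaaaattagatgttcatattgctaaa
Malat1 body, chr19:5802191-5802250: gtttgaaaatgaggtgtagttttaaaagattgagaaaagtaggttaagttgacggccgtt

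The promoters of 4 genes described below are shown with the motif that is known for their group, from RefSeq on GRCm38.p6, as the 250 bases before the start of the gene on its own strand. Capitals mark the match. In Dusp1 it is the cyclic AMP response element TGACGTCA, which 1.62% of all 27025 promoters hold on either strand and 3 of the 28 immediate early genes with a promoter in the table. In Nfkbia it is the NF-kB motif (GGGA, any base, TTTCC), held by 0.34% of all promoters. Among the 16 NF-kB feedback genes with a promoter only 1 holds it, Nfkbia itself. In Cxcl10 and Ifit3 it is the interferon-stimulated response element (TTTC, any 2 bases, TTTC), held by 3.04% of all promoters. It was in 13 of the 24 interferon-stimulated genes, Ifit3 among them, and in 2 of the 16 chemokine and cytokine genes, Cxcl10 among them. In all, 8 motifs were searched on both strands, and a match describes letters and not a bound site. A pattern only like that of the serum response element was also searched (CC, any 2 bases, AT, any 2 bases, GG). It was in 3.84% of all promoters and in 2 of the 28 immediate early genes, and the AP-1 motif TGANTCA in 6.87% and in 0. The glucocorticoid response motif was in 0.38% and in 1 of 26 glucocorticoid targets, the heat shock motif in 0.4% and in 1 of 17 chaperone genes, and the hypoxia response motif GACGTG in 5.18% and in 6 of 27 HIF targets.
Dusp1 promoter, chr17:26508473-26508722, minus strand: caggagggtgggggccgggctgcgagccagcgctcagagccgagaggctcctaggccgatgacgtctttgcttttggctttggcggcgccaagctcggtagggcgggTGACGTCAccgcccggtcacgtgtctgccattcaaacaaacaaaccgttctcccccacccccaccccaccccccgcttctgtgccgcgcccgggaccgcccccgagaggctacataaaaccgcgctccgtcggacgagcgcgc
Nfkbia promoter, chr12:55492648-55492897, minus strand: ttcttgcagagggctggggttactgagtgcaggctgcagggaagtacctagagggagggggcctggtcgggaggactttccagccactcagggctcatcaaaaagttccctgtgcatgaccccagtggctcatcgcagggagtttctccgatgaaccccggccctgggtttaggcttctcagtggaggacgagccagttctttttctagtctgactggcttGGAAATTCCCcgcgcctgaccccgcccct
Cxcl10 promoter, chr5:92348890-92349139, minus strand: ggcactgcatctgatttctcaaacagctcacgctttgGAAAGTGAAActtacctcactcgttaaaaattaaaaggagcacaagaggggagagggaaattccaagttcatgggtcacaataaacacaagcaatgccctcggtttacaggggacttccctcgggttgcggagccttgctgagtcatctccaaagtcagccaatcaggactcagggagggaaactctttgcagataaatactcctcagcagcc
Ifit3 promoter, chr19:34583279-34583528, plus strand: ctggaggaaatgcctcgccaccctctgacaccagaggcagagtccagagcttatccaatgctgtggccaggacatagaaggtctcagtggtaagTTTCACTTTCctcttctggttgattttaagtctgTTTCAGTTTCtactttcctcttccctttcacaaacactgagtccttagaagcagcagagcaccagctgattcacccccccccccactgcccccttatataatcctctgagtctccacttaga

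Immediate early genes were mostly lower in the oleic acid mice. Of 35 on the list, 33 were measured, and 23 of them were lower and 10 higher, with a median difference of -0.30, where 52.2% of all genes were lower and 47.8% higher. The 2 groups did not overlap for 12 that were lower, against 6.31% of all genes, and for 2 that were higher, Jund and Atf3, against 4.29%. Unadjusted p was under 0.05 for 8 lower members, against 2.22% of all genes, and for 1 higher member, Jund, against 3.07%, and no member passed after adjustment. Between the 2 mice of slide 2, 26 were lower and 7 higher, with a median of -0.39, where 55.5% of all genes were lower, and without slide 2 the median was -0.30. Without serum replicate 2 the median was -0.20.

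Klf2, a transcription factor of endothelial cells and leukocytes that is induced by blood flow, was at 0.94, 1.68 and 1.18 in the serum mice and at 0.16, 0.22 and 0.11 in the oleic acid mice. Every oleic acid mouse lay below every serum mouse, and the oleic acid mice were close together. The difference was -1.10 ± 0.27 (SE), or 2.15-fold lower, with a limma adjusted p of 0.515, and within slide 2 it was -1.02. Its probe lies at chr8:74845137-74845196 on mm9.

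Dusp1, a phosphatase that switches off MAP kinases and is itself an early target of both neuronal activity and glucocorticoids, was at 1.09, 1.28 and 1.21 with serum and at 0.11, 0.42 and 0.39 with oleic acid. The groups were separate, by more than the spread within either. The difference was -0.89 ± 0.25 (SE; limma adjusted p = 0.651), and -1.10 within slide 2.

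The nuclear receptor Nr4a1, induced by activity and by stress hormones, was at 4.89, 5.13 and 4.83 with serum and at 4.15, 3.86 and 4.10 with oleic acid. These groups did not overlap, and the difference was -0.91 ± 0.34 (SE; limma adjusted p = 0.813), and -0.68 within slide 2. Arc, which acts at synapses that have just been active, was at 3.31, 3.93 and 3.78 with serum against 2.90, 2.19 and 2.57 with oleic acid. Its difference was -1.12 ± 0.47 (SE; limma adjusted p = 0.893), with separate groups but a wide spread within each, and it was -0.88 within slide 2. Fos, part of the AP-1 transcription factor, was at 0.57, 1.24 and 0.81 with serum and at 0.23, -0.38 and 0.51 with oleic acid, so that the highest oleic acid mouse was just below the lowest serum mouse, and it differed by -0.57 within slide 2.

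Klf6, another early zinc finger factor, differed by -0.41 and Npas4, a factor particular to neurons that follows calcium entry, by -0.54, both with separate groups. Egr1, among the most used markers of neuronal activity, was lower by a smaller amount, at -0.35 ± 0.26 (SE), and its groups overlapped. The list thus held members with separate groups beside members within the spread.

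**Figure D1:**
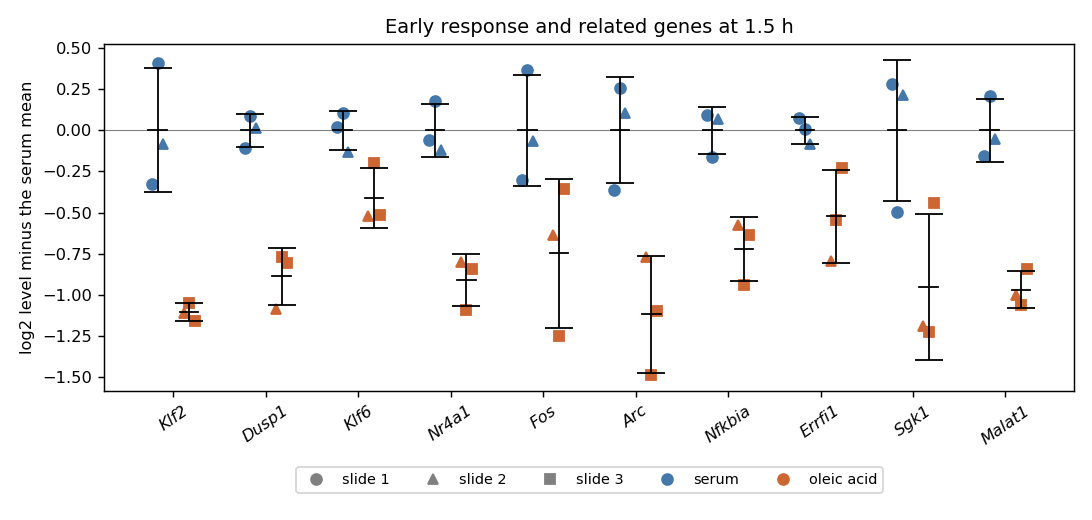
Each point is 1 mouse at 1.5 h, as its log2 level minus the mean of the 3 serum mice (y axis), for 10 genes (x axis); blue is serum, orange oleic acid, the symbol gives the slide, and bars show the group mean ± SD. All 3 oleic acid mice lie below all 3 serum mice for every gene shown other than Sgk1, whose groups overlap.

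Genes that glucocorticoids induce were also more often lower than higher. All 30 on the list were measured, 22 were lower and 8 higher, against 52.2% and 47.8% of all genes, and the median was -0.20. For 8 of them the oleic acid mice lay below all serum mice, against 6.31% of all genes. An unadjusted p under 0.05 was reached by 6 lower members, against 2.22%, but none passed after adjustment. The list shares Dusp1 with the immediate early genes and Nfkbia with the NF-kB feedback genes. It shares Ddit4 and Slc2a1 with the HIF targets, and Angptl4, Pdk4 and Plin4 with the PPAR targets described below. The counts of these lists are therefore not independent. Within slide 2, 27 of the glucocorticoid targets were lower, where 55.5% of all genes were, and their median was -0.37. Without slide 2 their median was -0.12.

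Nfkbia, the inhibitor that holds NF-kB in the cytoplasm, was at 3.69, 3.43 and 3.67 with serum and at 3.01, 2.65 and 2.96 with oleic acid. The groups were separate, with a difference of -0.72 ± 0.21 (SE; limma adjusted p = 0.664) and of -0.65 within slide 2. Sgk1, a kinase that regulates ion channels, was at 3.40, 2.62 and 3.33 against 1.92, 1.89 and 2.68. Its difference was -0.95 ± 0.34 (SE; limma adjusted p = 0.784), and serum replicate 2 lay below oleic acid replicate 3. Within slide 2 it was -1.41.

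Errfi1, a feedback inhibitor of the EGF receptor, differed by -0.52, and Ddit4, an inhibitor of mTOR signalling that hypoxia also induces, by -0.78, both with separate groups. The most used markers of glucocorticoid action stood closer to 0. Fkbp5, a chaperone of the glucocorticoid receptor, differed by 0.04 ± 0.25 (SE), Tsc22d3, known as GILZ, by -0.19 ± 0.24 (SE), and the clock gene Per1 by -0.26 ± 0.22 (SE). All 3 had overlapping groups, and Fkbp5 was lower within slide 2, at -0.33.

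Malat1 was the named gene with the smallest p among those lower. Its main probe was at 2.20, 2.57 and 2.30 with serum and at 1.36, 1.30 and 1.52 with oleic acid. The groups lay apart by more than the spread within each, and the difference was -0.97 ± 0.21 (SE), or 1.96-fold lower, with a limma adjusted p of 0.278. Within slide 2 it was -0.94.

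The probes along the RNA were compared after their values were seen, so what follows is a description. The 4 probes at the 3′ end, some of which are printed above and which overlap or share their sequence, differed by -0.97 to -0.93. The 6 probes of the body, between 2567 and 6578 bases from the 3′ end, differed by -0.29 to 0.13. The mean of the 3′ end probes minus the mean of the body probes was -3.27 ± 0.29 (SD, n = 3) with serum and -4.16 ± 0.07 (SD, n = 3) with oleic acid. These means differed by -0.90, and by -0.54 within slide 2. Neat1, the neighbouring nuclear RNA that builds paraspeckles, differed by -0.18 ± 0.17 (SE) with overlapping groups, and by 0.21 within slide 2.

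**Figure D2:**
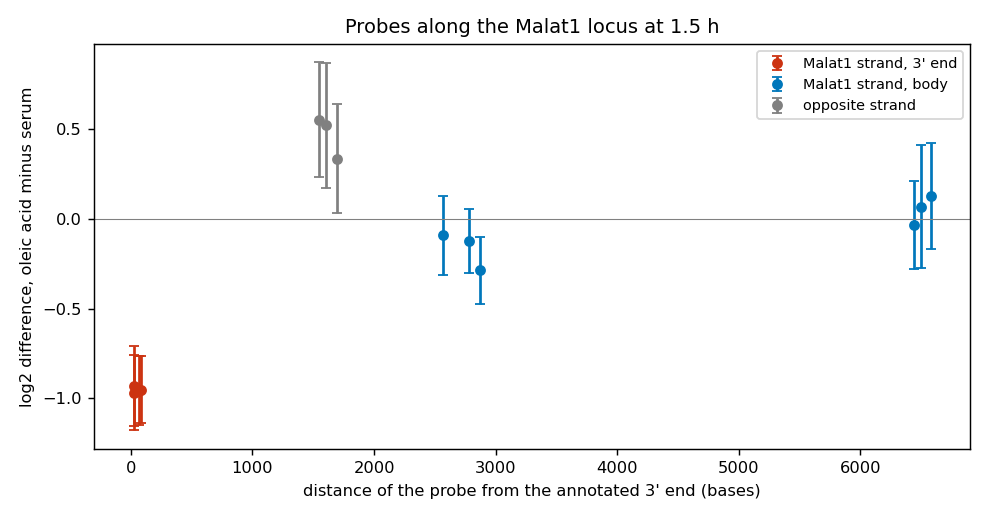
The log2 difference of oleic acid minus serum at 1.5 h (y axis) for 13 probes by their distance in bases from the annotated 3′ end of Malat1 (x axis), with bars of ± 1 SE from limma. The 4 probes at the 3′ end lie between -0.97 and -0.93, the 6 body probes between -0.29 and 0.13, and the 3 probes of the opposite strand between 0.33 and 0.55.

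Other genes that the naming rule gave as lower serve different functions. Polr3e, a subunit of RNA polymerase III, was at 1.86, 1.43 and 1.52 with serum and at 0.57, 0.66 and 0.99 with oleic acid, and its 2 probes differed by -0.86 and -1.13, the first by -0.94 within slide 2. Gdnf, a growth factor for dopamine and motor neurons, was at -3.89, -3.49 and -3.88 against -5.34, -4.57 and -4.57, and was well above background in 2 of the 3 oleic acid mice. Mkks, a chaperonin-like protein of the ciliary base, differed by -0.61. Hic1, a transcriptional repressor, differed by -0.60 and Zcchc2 by -0.40 on their main probes, but the second probe of each gave 0.12 and 0.01. The second Hic1 probe was dim, with a serum mean of -5.30, and was well above background in only 2 of 3 mice of each group. None of these genes passed the test.

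Chemokine genes were more often higher than lower in the oleic acid mice. Of 24 on the list 15 were measured, and those that did not pass the filter on dim probes included Tnf, Il6, Cxcl1 and Cxcl2. Of the measured genes 11 were higher and 4 lower, where 47.8% of all genes were higher. The median was 0.20, also 0.20 within slide 2, and 0.33 without serum replicate 2. Separate groups were found for 5 higher members, against 4.29% of all genes. They were Ccl2, Lif, Il1b, Ccl7 and Cxcl5, of which the last 2 were named after their values were seen. The filter can pass a gene through the group in which it is high, so these counts describe the measured genes only.

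Ccl2, the chemokine that draws monocytes through the receptor Ccr2, was at -4.19, -3.00 and -3.03 with serum and at -1.76, -1.40 and -1.93 with oleic acid. All 3 oleic acid mice lay above all 3 serum mice, and serum replicate 1 was the lowest. The difference was 1.71 ± 0.47 (SE), or 3.27-fold, with a limma adjusted p of 0.651, and within slide 2 it was 1.27. Its probe lies at chr11:81850650-81850709 on mm9.

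Cxcl10, an interferon-induced chemokine for T cells, was at -3.29, -4.24 and -4.40 with serum and at -3.78, -2.72 and -2.60 with oleic acid. The groups overlapped, with serum replicate 1 above oleic acid replicate 1, and the difference was 0.95 ± 0.42 (SE; limma adjusted p = 0.899), and 0.63 within slide 2. Lif, a cytokine of the interleukin 6 family, and Il1b, the fever cytokine, were not well above background in any serum mouse. Lif was at least 1.73-fold higher (limma adjusted p = 0.922) and Il1b, measured in 2 of 3 oleic acid mice, at least 1.25-fold higher (limma adjusted p = 0.922). The nearest Il1b values of the 2 groups, -5.42 in serum replicate 2 and -5.41 in oleic acid replicate 1, were both not well above background, so its groups were barely apart. Within slide 2 Lif was not well above background in the serum mouse and Il1b in neither mouse.

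Genes of neutrophils and monocytes were mostly higher in the oleic acid mice. Of 22, 16 were measured, and 13 were higher and 3 lower, where 47.8% of all genes were higher. The median was 0.54, with 0.38 within slide 2 and 0.64 without it. It was 0.33 both without serum replicate 1 and without oleic acid replicate 1, and 0.32 with normexp background correction. The groups were separate for 5, all higher, against 4.29% of all genes, namely Ltf, Ngp, S100a9, Camp and Mpo, the last named after its value was seen. In whole tissue, more cells of a type and more RNA per cell cannot be told apart.

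Erythroid genes, which mark blood left in the tissue, went different ways between slides. Of 13 measured, 10 were lower and 3 higher over all 6 mice, against 52.2% and 47.8% of all genes, with a median of -0.19. Between the mice of slide 2, however, 10 were higher and 3 lower, with a median of 0.25, where 55.5% of all genes were lower. The mean level of the list ran from 1.85 to 2.17 in the serum mice and from 1.61 to 2.25 in the oleic acid mice, highest in oleic acid replicate 1. Hba-a1, a haemoglobin chain, differed by -0.39 over all 6 mice and by 0.74 within slide 2, and Alas2, of haem synthesis, by -0.44 and 0.53. Ahsp, which stabilises free alpha globin, was higher, by 0.64 with separate groups, and Fech, another enzyme of haem synthesis, was lower, by -0.19 with separate groups. The part of blood in the neutrophil values was not tested.

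Ngp, a protein of neutrophil granules, was at -5.63, -4.80 and -5.08 with serum and at -3.49, -3.50 and -3.40 with oleic acid. The oleic acid mice lay within a narrow range above all serum mice, of which only replicate 2 had Ngp well above background. The difference was 1.71 ± 0.55 (SE; limma adjusted p = 0.764), and 1.59 within slide 2, but its size rests on serum signals that were not well above background in 2 of 3 mice. Ltf, the iron-binding protein lactoferrin, was at -5.03, -4.71 and -4.76 against -3.57, -3.60 and -3.09, with a difference of 1.41 ± 0.45 (SE; limma adjusted p = 0.760), and of 1.19 within slide 2. In serum at 1.5 h Ltf, at -4.83, had the lowest mean of the 12 groups, while oleic acid at 1.5 h, at -3.42, was near serum at 3 h, at -3.36, and oleic acid at 4 h, at -3.45.

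S100a9 and S100a8, the 2 chains of calprotectin, were brighter and differed less. S100a9 was at -0.19, 0.85 and 0.19 with serum against 0.89, 1.32 and 1.29 with oleic acid, so that the highest serum mouse was just below the lowest oleic acid mouse, and it differed by 0.70 within slide 2. S100a8 differed by 0.75 ± 0.43 (SE) and its groups overlapped. Camp, the antimicrobial cathelicidin, differed by 0.56 on its main probe and by 0.14 on its second probe. For these 3 genes too serum at 1.5 h had the lowest mean of the 12 groups, at 0.28 for S100a9, -1.71 for S100a8 and -1.76 for Camp. Camp with oleic acid at 1.5 h, at -1.20, was close to oleic acid at 1 h and at 4 h, at -1.20 and -1.21.

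Interferon-stimulated genes were on average higher in 1 oleic acid mouse. Of 32 on the list 31 were measured, and their mean level was -1.39, -1.31 and -1.52 in the serum mice and -1.40, -1.34 and -0.84 in the oleic acid mice. Oleic acid replicate 3 thus lay above the other 5, which were close together. Over 3 against 3, 22 genes were higher and 9 lower, where 47.8% of all genes were higher, and the median was 0.19, with 0.11 within slide 2 and 0.23 without it. Without oleic acid replicate 3 the median was 0.015. The groups did not overlap for 2, Ifit3 and Ifitm3, against 4.29% of all genes, and 4 had an unadjusted p under 0.05, against 3.07%. Ifit3, which binds foreign RNA, was at -0.36, -0.51 and -0.56 with serum and at -0.19, -0.21 and 0.06 with oleic acid, a difference of 0.36 ± 0.13 (SE; limma adjusted p = 0.784), and of 0.37 within slide 2. Irf1, a transcription factor upstream of many of these genes, differed by 0.50 ± 0.17 (SE), Mx2 by 0.42 and Gbp2 by 0.69, each with overlapping groups.

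**Figure D3:**
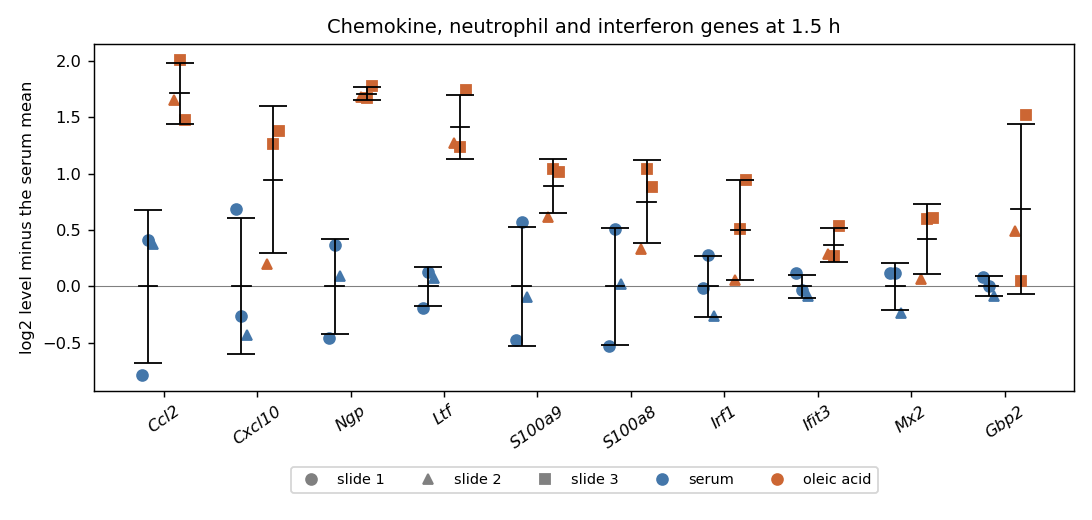
Each point is 1 mouse at 1.5 h, as its log2 level minus the mean of the 3 serum mice (y axis), for 10 chemokine, neutrophil and interferon genes (x axis); colours give the treatment, symbols the slide, and bars the group mean ± SD. The groups are separate for Ccl2, Ngp, Ltf, S100a9 and Ifit3 and overlap for the other 5.

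The genes with the smallest p among those higher belong to no list other than Ccl2. Cnksr1, a scaffold protein of Ras signalling, was not well above background in any serum mouse and was at least 1.26-fold higher with oleic acid (limma adjusted p = 0.276). Foxi3, a forkhead factor, was likewise at least 1.52-fold higher (limma adjusted p = 0.628). Cdca4, a nuclear protein of the cell cycle, was at -1.89, -2.22 and -2.25 with serum and at -1.53, -1.54 and -1.47 with oleic acid, with a difference of 0.61 ± 0.13 (SE; limma adjusted p = 0.311), and of 0.72 within slide 2. Dbr1, which opens the lariats left by splicing, differed by 0.35, Rhov, a small GTPase, by 0.37 and Erv3 by 1.09, all with separate groups. Fcor differed by 1.04, but its groups met, with serum replicate 2 and oleic acid replicate 1 both at -4.55. Erv3 and Fcor were each well above background in only 2 of 3 serum mice, so their sizes rest partly on dim signal.

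The heat shock chaperone and HIF target lists had small median differences, as did the glucocorticoid list, at -0.20. Of 19 heat shock chaperone genes measured 18 were lower, where 52.2% of all genes were, and 5 were lower with separate groups, against 6.31%. The median was -0.11, with -0.27 within slide 2, -0.053 without oleic acid replicate 1, -0.20 without serum replicate 3 and -0.21 without oleic acid replicate 3. The co-chaperones Dnaja1, Chordc1 and Ahsa1 differed by -0.26, -0.29 and -0.24, and Dnajb1, at -0.31, had overlapping groups. Of 28 genes that the hypoxia factor HIF induces 21 were lower, against the same 52.2%, and 6 were lower with separate groups, against 6.31%, Ddit4, Pfkfb4 and Bnip3l with the smallest p. The median was -0.18, with -0.17 within slide 2, -0.12 without it and -0.095 without oleic acid replicate 1. The largest difference of the HIF list was in the other direction. It was 1.24 for Mxi1, named after its value was seen, with overlapping groups and 0.16 within slide 2. Pfkfb4 makes a regulator of glycolysis and differed by -0.31, and Bnip3l, which marks mitochondria for removal, by -0.25 on its main probe. The other Bnip3l probes differed by -0.21, -0.17 and -0.06, all with overlapping groups. Bnip3, a relative of Bnip3l, differed by -0.19 and Vegfa, the vascular growth factor, by -0.20 ± 0.13 (SE), both with overlapping groups.

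Among 17 NF-kB feedback genes 12 were lower and 5 higher, against 52.2% and 47.8% of all genes, with a median of -0.045. Between the mice of slide 2, however, 7 were lower and 10 higher, with a median of 0.018, where 55.5% of all genes were lower. The median was also above 0 without serum replicate 1, at 0.0094, and with normexp, at 0.012. Nfkbia, Tnip1 and Ptgs2 were lower with separate groups, against 6.31% of all genes. Only 1 member was higher with separate groups, against 4.29%, namely Nfkb2, named after its value was seen, at 0.25. Tnip1, which restrains NF-kB, differed by -0.29 on its main probe and by -0.25 on its second probe, whose groups overlapped. Ptgs2, the inducible cyclooxygenase, differed by -0.41, and Bcl3, a nuclear partner of NF-kB, by 0.53 with overlapping groups. Of 32 PPAR target and fatty acid oxidation genes, whose receptors bind fatty acids, 23 were lower and 9 higher. Of all genes 52.2% were lower and 47.8% higher. The median of the list was -0.08, and within slide 2 its members stood at 16 lower and 16 higher, where 55.5% of all genes were lower. Separate groups were found for 2 lower members, near the 6.31% of all genes, and for 2 higher members, against 4.29%. Without serum replicate 3 the median was -0.12. Angptl4, a secreted inhibitor of lipoprotein lipase, differed by -0.47 ± 0.29 (SE) with separate groups, and Pdk4, which spares glucose when fat is burned, by -0.20 ± 0.16 (SE) with overlapping groups.

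The cerebellum genes, like the erythroid genes and several other lists, turned direction between slides. The 15 cerebellum genes had a median of -0.54, of 0.52 within slide 2 and of -0.97 without it. Without serum replicate 1 it was -0.01 and without oleic acid replicate 2 it was 0.03. Among the other lists that turned, the liver median was 0.51 within slide 2 and -0.30 without it. The lung median was 0.19 within slide 2 and -0.83 without it. The choroid plexus gene Ttr, very abundant in brain, differed by 0.15 ± 0.18 (SE).

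**Figure D4:**
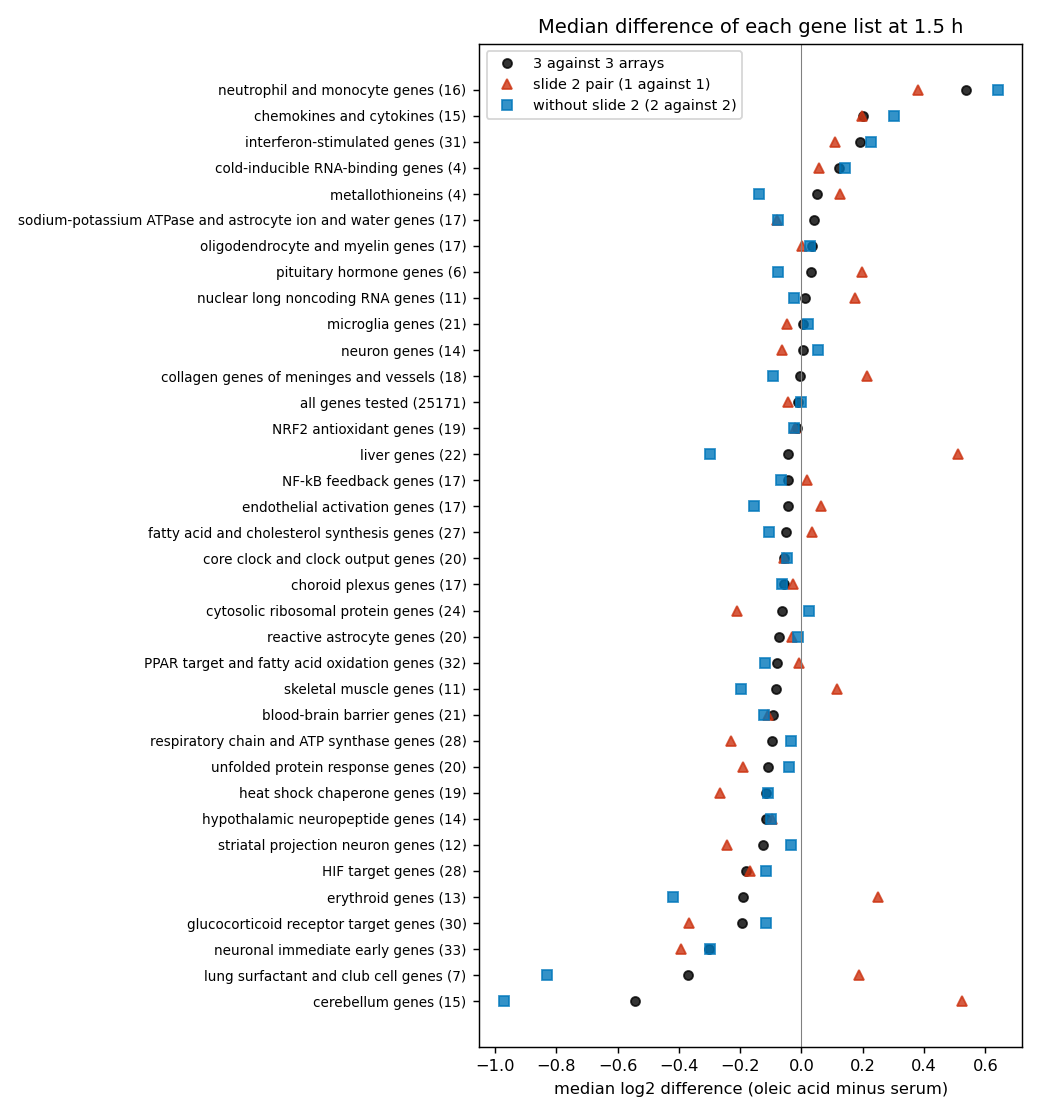
The median log2 difference of oleic acid minus serum over the measured members of each of 35 lists and over all 25171 genes (x axis), with the number of members in brackets; circles are 3 against 3 arrays, triangles the pair of slide 2, squares the other 4 arrays. The neutrophil, chemokine and interferon lists lie above 0 and the immediate early and glucocorticoid lists below 0 in all 3. The cerebellum, erythroid, liver, lung and some other lists change side. Circles use the same arrays as the triangles and squares, and in the squares slide and treatment cannot be told apart.

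With slide as a fixed block in limma, 30 genes passed (0.119% of those tested), 5 higher (0.0199%) and 25 lower (0.0993%). This fit takes the difference from slide 2 alone, 1 mouse of each treatment, with the spread of the other arrays of the series. In 24 of the 25 lower genes serum replicate 3 was above the other 5 arrays, and in all 5 higher genes oleic acid replicate 1 was. Zswim4 was at -3.51, -4.07 and 1.84 with serum and at -3.49, -3.30 and -3.67 with oleic acid, so that a single serum mouse set its difference. Tex48, Srms, Cnga2 and Il17rb were lower in this fit, by 4.97, 3.32, 2.77 and 2.51 on the log2 scale, and Gckr higher, by 1.86. Tex48 and Srms were each well above background in only 1 of 3 oleic acid mice, so their sizes rest partly on dim signal. Fbxo40 was also higher, but it was not well above background in any serum mouse, so no size is given. None of these 7 genes had separate groups over all 6 arrays. Among all the genes that passed in this fit, 6 had separate groups. Of all genes tested, 4.29% were higher and 6.31% lower with separate groups. In 14 of the lower genes oleic acid replicate 1 was below the other 5 arrays.

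The effect at 1.5 h was also compared with the effect at other times, to see which differences belong to this time. No gene passed for the difference from 1 h, from 3 h or from the mean of the other 5 times (0 of 25171 each by limma after adjustment). Unadjusted p was under 0.05 for 1030 genes against 1 h (4.09%), 2828 against 3 h (11.2%) and 1071 against the other times (4.25%). For Klf2 the difference was -0.13 ± 0.27 (SE) at 1 h and 0.70 ± 0.30 (SE) at 3 h, against -1.10 at 1.5 h (limma adjusted p = 0.206 for 1.5 h against 3 h). For Dusp1 the differences were 0.21, -0.89 and 0.40 at 1, 1.5 and 3 h, and for Malat1 -0.04, -0.97 and 0.27.

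Group means of all times are set beside these differences, and on which side they arose was not tested. Times also lay on partly different slides. Klf2 in the oleic acid mice of 1.5 h, at 0.16 ± 0.05 (SD, n = 3), was below the other 11 group means. The next were serum at 3 h, at 0.29, and oleic acid at 4 h, at 0.38 ± 0.28 (SD, n = 3). Klf2 in serum at 1.5 h, at 1.26, was close to both groups of 1 h, at 1.31 and 1.18. Dusp1 was at 1.19 ± 0.10 (SD, n = 3) with serum, below only oleic acid at 3 h, and at 0.31 ± 0.17 (SD, n = 3) with oleic acid, near the 0.29 of serum at 24 h. Malat1 with serum, at 2.36, was the highest of its 12 means. With oleic acid at 1.5 h it was at 1.39, below serum and oleic acid at 1 h, at 1.91 and 1.87. Ccl2 with oleic acid, at -1.70, was the highest of its 12 means, followed by oleic acid at 3 h, at -1.95 ± 0.46 (SD, n = 3), which does not differ from it beyond the spread.

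**Figure D5:**
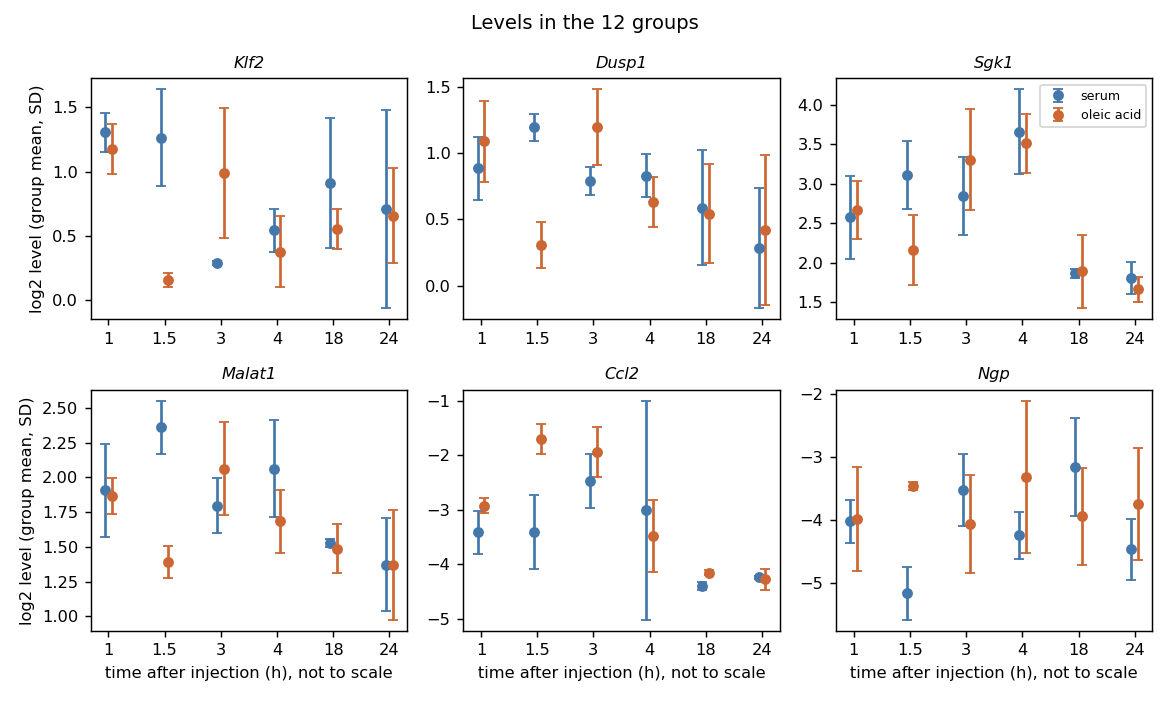
Group means of the log2 level (y axis) with bars of ± SD for 6 genes in serum (blue) and oleic acid (orange) at 1, 1.5, 3, 4, 18 and 24 h (x axis, not to scale). At 1.5 h Klf2, Dusp1, Sgk1 and Malat1 are lower and Ccl2 and Ngp higher with oleic acid, and the gap is smaller or turned at 1 h and 3 h.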

How the data were processed

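Per the submitters' processing notes, the authors read the Cy3 scans in Agilent Feature Extraction 10.5.1.1. The deposited files hold spot intensity (mean, local background and processed), and, per the file headers, other columns of flags. The deposited log2 value table served as an alternative only; on each array it correlated at 0.998 or more with the log2 mean spot intensity. Levels are log2 processed intensity minus the array's 75th percentile. Flagged non-uniform and outlier spots were set to missing and spots of a probe averaged. Probes kept were well above background throughout 1 or more of the 12 groups (35652 of 55681) and measured on all 31 arrays (35498). The brightest probe stood for each of 25171 genes. Names came from RefSeq (29697 probes matched) or else the files. Probe coordinates are mm9; whether a probe lies in an exon or a UTR was not analysed here.

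limma 3.58.1 in R 4.3.3 fitted 12 group means to all 31 arrays (19 residual degrees of freedom), with Benjamini-Hochberg adjustment over all genes; the model was tested on simulated data. The number of arrays limits the precision. A fold of at least a value is the bright group's mean over the lowest signal well above background, or the gene's own if higher, in the dim group. The labels do not tie mice of the same number, and deviations of same-numbered arrays correlated at -0.44, 0.39 and -0.62, so no pairing was used. The members and lists were chosen with earlier results of these data known. Named were, for each direction, the 8 genes of smallest p with separate groups and a symbol, up to 5 with slide as a block, up to 4 per list, and a panel; 1 probe and the entry it stood for are not reported here. The fit on every probe was added after seeing the data.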

Additional observations from a re-analysis of the deposited data

How the results depend on the processing

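The count of 0 genes past the test at 1.5 h also held with normexp, quantile or median scaling, other filters, slide as a random block (correlation 0.218) and the replicate block, which gave 0 (no same-numbered mice were paired). It was 30 with slide as a fixed block, 1 with scan date, 1 with the deposited value table, 11 without slide 2, and 0 to 159 on leaving out 1 mouse, the 159 without serum replicate 3. With limma arrayWeights it was 1361; these weights, whose estimation did not converge, were 0.345 and 0.239 on slide 2 and up to 4.22 elsewhere. For the difference from 1 h the count was 17 with slide as a fixed block, 11 with arrayWeights, 1 each with normexp, the value table, the stricter filter, the mean of probes and the trend option, and 0 to 7 on leaving out 1 mouse. From 3 h it was 12 with the slide block, 174 with arrayWeights, 1 with the arrays of 1, 1.5 and 3 h, 7 without slide 2, and 0 to 95. From the other times it was 26, 219 with arrayWeights, 12 without slide 2, and 0 to 52. The cause was not tested. Of 65 genes examined, 56 kept their direction in every alternative that measured them. Some of these genes were chosen for separate groups. Such a gene cannot turn with the slide block, without slide 2 or on leaving out 1 mouse. For them these alternatives are therefore no test of the direction. With arrayWeights, without slide 2, and from lowest to highest on leaving out 1 mouse, Zswim4 was 0.12, 0.31 and -2.65 to 0.31, Cnga2 0.39, 0.57 and -1.18 to 0.65, Il17rb 0.35, 0.45 and -0.89 to 0.044, and Gckr -0.20, -0.36 and -0.20 to 0.78. Also turned was Fbxo40 (-0.11 without slide 2). With the slide block, turned were Fkbp5 (-0.33), Neat1 (0.21), Gabra6 (2.50) and Hba-a1 (0.74). Fkbp5 was also -0.033 with median scaling and -0.051 to 0.14 on leaving out 1 mouse, and Gabra6 -4.01 to 0.32. Signal near background limits Cnksr1, Foxi3, Lif, Il1b, Ngp, Fbxo40, Tex48, Srms, Erv3 and Fcor.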

Other observations

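The mean over the 4 probes at the 3′ end of Malat1 was 1.32 ± 0.08 (SD, n = 3) with oleic acid at 1.5 h, close to the 1.33 and 1.35 of both groups at 24 h, and highest of all 12 groups in serum at 1.5 h, at 2.27 ± 0.17 (SD, n = 3). At 3 h the means were 1.66 with serum and 1.97 with oleic acid. The 3 probes on the opposite strand at 1.5 h, at -0.25 ± 0.44 (SD, n = 3) with serum and 0.22 ± 0.49 (SD, n = 3) with oleic acid, differed by 0.33 to 0.55 between treatments, none past the test.

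Of the 28 respiratory chain and ATP synthase genes, 24 were lower in the oleic acid mice, by a median of -0.10, where 52.2% of all genes were lower, and 3 were lower with separate groups, near the 6.31% of all genes. Their mean level was 5.26, 5.35 and 5.27 in the serum mice and 5.05, 5.35 and 5.22 in the oleic acid mice, so that oleic acid replicate 1 was the lowest. Within slide 2, which holds that mouse, 27 were lower, with a median of -0.23, where 55.5% of all genes were lower. Without slide 2, 17 were lower and 11 higher, with a median of -0.04, and without oleic acid replicate 1 the median was -0.0065. Without serum replicate 2 it was -0.05 and without oleic acid replicate 2 it was -0.17.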
